A study of Mus musculus with 6 samples.

Results

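The genes described here encode the machinery with which macrophages read IgG. They are the 9 symbols Fcgr1, Fcgr2b, Fcgr3, Fcgr4, Fcer1g, Fcgrt, Syk, Lyn and Inpp5d, chosen by name for their place in the Fc-gamma receptor pathway out of the 23935 symbols of the count and TPM tables. The RNA came from bone marrow-derived macrophages (BMDMs), which are macrophages grown from marrow in M-CSF, cultured for 7 days. In both groups the sample titles give priming with LPS and IFN-γ. The study's general methods for BMDMs give 16 h, with LPS at 10 ng/mL and IFN-γ at a concentration of 25 ng/mL. PKM2FL/FL mice carried the floxed Pkm allele alone, and PKM2ΔMAC mice carried it together with LysM-Cre, with 3 libraries of each genotype numbered by mouse. LysM-Cre sits in the Lyz2 locus and acts in macrophages, neutrophils and other myeloid cells, and the PKM2FL/FL mice lacked it, so that loss of PKM2 and presence of the Cre allele cannot be told apart. The study's methods name male mice as donors of BMDMs for flow cytometry, but for the donors of these libraries the sources used here give neither age nor sex, and no unprimed libraries were analysed here.

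Fc-gamma receptors bind the constant part of IgG on coated particles and immune complexes. The activating receptors of the mouse (Fcgr1, Fcgr3 and Fcgr4) signal through the common gamma chain Fcer1g, whose ITAM tyrosines are phosphorylated by Src-family kinases such as Lyn and then recruit the kinase Syk, which leads to phagocytosis and cytokine release. The inhibitory receptor Fcgr2b carries an ITIM that recruits the inositol phosphatase encoded by Inpp5d, and the balance of activating to inhibitory receptors sets the threshold of the cell for immune complexes. Fcgrt encodes the alpha chain of FcRn, an intracellular receptor of a different fold that pairs with B2m and returns IgG from endosomes to the cell surface.

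The libraries held between 49957449 and 54524651 counts, and 16516 genes, all 9 receptor pathway genes among them, passed the filter on low counts. Of the genes tested, 68 differed between the genotypes at a Benjamini-Hochberg adjusted p under 0.05 with edgeR's quasi-likelihood test. Pkm, counted over all its transcripts so that the M1 and M2 forms are not told apart, had 1714, 1698 and 1705 CPM (counts scaled to a common library size) in the PKM2FL/FL libraries and 987, 1212 and 1005 in the PKM2ΔMAC libraries (log2 fold change -0.68, SE 0.077, edgeR adjusted p = 0.00913). Lyz2, the locus of the Cre, took between 4.48% and 4.96% of the TPM of the PKM2FL/FL libraries and at most 0.00876% of the PKM2ΔMAC libraries, and the median log2 difference over genes with a mean of at least 1 TPM was 0.063 on TPM, against -0.00021 over the genes tested on TMM-scaled counts. The library of PKM2ΔMAC replicate 2 stood apart from the others. In it, 55 genes lay at least 1.5-fold below, and 64 at least 1.5-fold above, each of the other 5 libraries, out of 9091 genes with a mean of at least 10 CPM. In each of the other libraries, at most 19 genes lay below and at most 12 above.

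The labels were compared with marker genes. The macrophage markers were high in each library. Cd68, an endosomal glycoprotein and the most abundant of them by mean TPM, lay between 2174 and 2840 TPM. Csf1r, the M-CSF receptor, lay between 1825 and 2482 TPM. Of the 7 macrophage markers, 2 fold changes lay above 0 and 5 below on counts (4 above and 3 below on TPM), and 1 was called with edgeR (against 0.412% of all genes tested). Itgam, the integrin chain of complement receptor 3, was called higher in PKM2ΔMAC (log2 fold change 0.43, SE 0.040, edgeR adjusted p = 0.00272). Genes that LPS and IFN-γ are known to induce were low in both genotypes: Nos2 lay between 0.031 and 0.40 TPM, Cxcl9 between 0.50 and 1.15 TPM, Il1b between 3.24 and 5.90 TPM and Gbp2 between 26.8 and 39.0 TPM. Il12b and Ido1 did not pass the filter on low counts. The most abundant of the 12 priming response genes was Irf1, with between 47.8 and 52.6 TPM. Of the 10 tested, 0 were called with edgeR, against 0.412% of all genes tested (smallest edgeR adjusted p = 0.575, for Tnf). Without unprimed libraries, induction of these genes could not be measured. With several of them near 0, whether the cultures were primed as labelled is in doubt, and the receptor levels below are those of cells labelled as primed.

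Stretches of sequence are shown for the receptors whose counts or promoters bear on the values below. On GRCm38 with GENCODE M21, Fcgr2b (chr1:170958617-170976547, minus strand), Fcgr4 (chr1:171018920-171029761, plus strand), Fcgr3 (chr1:171051174-171064935, minus strand) and Fcer1g (chr1:171229572-171234365, minus strand) lie within 275.7 kb of chromosome 1. Fcgr1 lies elsewhere (chr3:96282909-96293969, minus strand). Among the 4 receptor genes Fcgr1, Fcgr2b, Fcgr3 and Fcgr4, Fcgr2b and Fcgr3 were the only pair whose transcripts shared stretches of 50 bases, and 2.92% of such stretches of Fcgr2b and 9.58% of those of Fcgr3 were found in the other gene. The longest shared run is 129 bases of coding sequence. It spans the end of exon 3 (chr1:170967980-170968081) and the start of exon 4 (chr1:170966674-170966700) of Fcgr2b, and in Fcgr3 exon 3 (chr1:171057691-171057792) and exon 4 (chr1:171054167-171054193):
Fcgr2b and Fcgr3 shared run: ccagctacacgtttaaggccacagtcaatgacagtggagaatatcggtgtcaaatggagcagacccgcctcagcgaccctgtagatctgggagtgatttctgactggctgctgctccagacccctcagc
A read that lies wholly inside this run could have been counted for either gene or for neither, and how the counting treated such reads is not given in the sources used here. The strand setting is not given either, and Gm38204, which lies antisense to Fcgr2b, had at most 6 counts in a library.

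The promoters of Fcgr1, Fcgr4 and Fcgr2b are printed because IFN-γ acts on macrophage promoters through short sequence elements, and PU.1 is the ETS factor of myeloid cells. The RefSeq windows run from 250 bases before to 50 bases after the start site on GRCm38.p6 and were searched on both strands for TTCNNNGAA (GAS, the gamma-activated sequence), the ISRE core (the interferon regulatory factor site, a GAAA followed after a gap of any 2 bases by a further GAAA) and GAGGAA (the PU.1 core). Matches are in capitals.
Fcgr1 promoter (chr3:96293920-96294219, minus strand): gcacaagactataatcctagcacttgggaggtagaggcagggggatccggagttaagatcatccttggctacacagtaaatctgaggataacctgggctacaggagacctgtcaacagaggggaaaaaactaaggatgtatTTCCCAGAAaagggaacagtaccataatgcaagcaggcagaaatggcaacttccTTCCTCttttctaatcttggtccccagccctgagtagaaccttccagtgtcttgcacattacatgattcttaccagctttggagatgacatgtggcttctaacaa
Fcgr4 promoter (chr1:171018676-171018975, plus strand): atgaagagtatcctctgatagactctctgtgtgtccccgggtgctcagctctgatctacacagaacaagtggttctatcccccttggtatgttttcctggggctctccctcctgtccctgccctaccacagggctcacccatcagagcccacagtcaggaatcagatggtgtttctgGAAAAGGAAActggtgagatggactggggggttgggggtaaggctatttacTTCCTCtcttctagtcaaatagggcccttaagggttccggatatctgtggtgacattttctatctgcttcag
Fcgr2b promoter (chr1:170976022-170976321, minus strand): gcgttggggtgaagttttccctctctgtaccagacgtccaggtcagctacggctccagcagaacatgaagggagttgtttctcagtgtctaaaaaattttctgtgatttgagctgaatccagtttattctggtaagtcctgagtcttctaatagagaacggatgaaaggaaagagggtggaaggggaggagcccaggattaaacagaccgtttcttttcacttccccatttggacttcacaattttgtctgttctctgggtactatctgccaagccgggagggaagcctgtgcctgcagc
The window of Fcgr1 held a GAS match that begins 109 bases before the start site and a PU.1 core 55 bases before it. That of Fcgr4 held an ISRE match 73 bases and a PU.1 core 22 bases before the start. The window of Fcgr2b held none of these motifs. The 8 genes that matched a window (all but Lyn) had 10 windows, with 2 each for Fcgr3 and Syk. Of these windows 1 held GAS, 1 held ISRE and 6, which include both overlapping windows of Fcgr3, held the PU.1 core, whereas 8.3%, 3.44% and 28.3% of all 32851 windows held them. A match describes letters and does not show that a factor binds.

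On the scale of TPM, which divides by transcript length and so lets genes be set side by side, the common gamma chain was the most abundant of the 9 genes. Fcer1g stood at 2035 ± 55.5 TPM (mean ± SD, n = 6 libraries) and Fcgr3 at 1032 ± 80.3. The high-affinity receptor Fcgr1 stood at 250 ± 24.4, Lyn at 226 ± 18.8, Inpp5d at 183 ± 8.71, Syk at 170 ± 5.28, Fcgrt at 169 ± 17.1, Fcgr4 at 143 ± 17.6 and Fcgr2b at 97.5 ± 24.6. Syk lay above Fcgrt in 4 of the 6 libraries, and Fcgrt above Fcgr4 in 4, so that neither pair of neighbours differed beyond the spread. Each other neighbour kept its place in 6 of 6 libraries, although the ranges of Fcgr1 and Lyn and those of Inpp5d and Syk overlapped across libraries. Fcgr2b, the inhibitory receptor, was thus the least abundant of the 9 genes in each of the libraries.

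**Figure D1:**
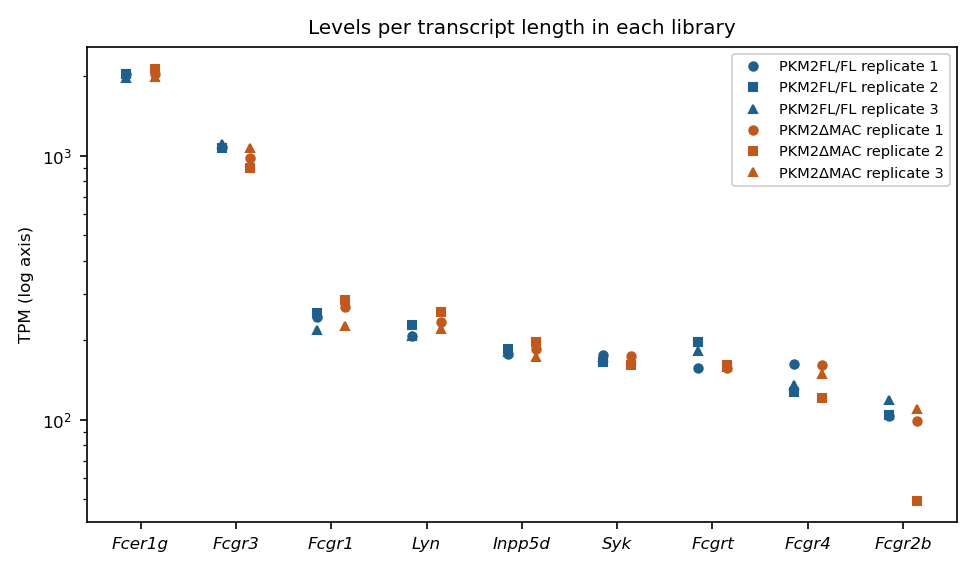
TPM of the 9 genes in each of the 6 libraries on a log axis, ordered by mean, with colour for genotype and symbol for replicate number. Fcer1g and Fcgr3 stand above the rest, and Fcgr2b lies lowest, with PKM2ΔMAC replicate 2 at 49.3 TPM.

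To assess whether the Fc-gamma receptor pathway differed between PKM2ΔMAC and PKM2FL/FL macrophages, each gene was tested in the fit over all genes. None of the 9 genes was called (0 of 9 at an adjusted p under 0.05, against 0.412% of all genes tested), and DESeq2 also called 0 of 9. At an unadjusted p under 0.05, edgeR and DESeq2 both gave 2 of 9, Fcgr3 and Fcgrt, where edgeR gave 9.83% of all genes tested. In 3 of the 9 genes (Fcgr3, Fcer1g and Fcgrt) the libraries of the genotypes did not overlap in CPM, each lower in PKM2ΔMAC, where 17.2% of all genes tested did not overlap in either direction. On TPM all 3 of these genes overlapped. On TMM-scaled counts 2 of the 9 fold changes lay above 0 and 7 below (median -0.055 on the log2 scale, against -0.00021 over all genes tested). On TPM 5 lay above and 4 below, with Fcgr4, Fcer1g and Inpp5d changing sign. There the median of the 9 genes was 0.012, against 0.063 over the genes with a mean of at least 1 TPM. In RNA from whole cultures, fewer cells that carry a transcript and less transcript per cell cannot be told apart.

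**Figure D2:**
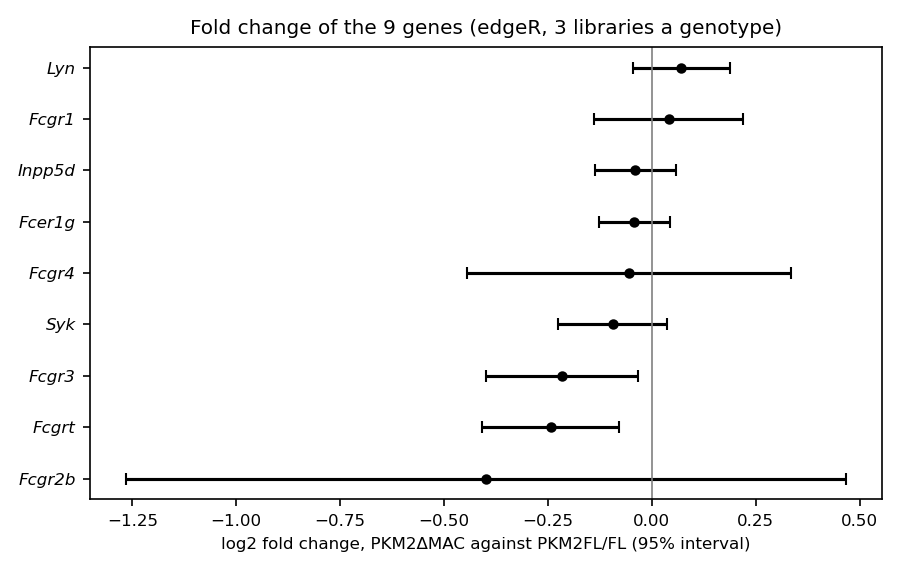
log2 fold change of each gene in PKM2ΔMAC against PKM2FL/FL (edgeR on counts, points) with its 95% interval (bars). The intervals of Fcgr3 and Fcgrt lie below 0, that of Fcgr2b reaches from -1.26 to 0.47, and those of the other 6 genes include 0.

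Among the activating receptors, Fcgr3 showed the largest difference. Fcgr3, which binds immune complexes with low affinity, had 539, 521 and 552 CPM in PKM2FL/FL and 467, 407 and 514 CPM in PKM2ΔMAC. The groups did not overlap in CPM, and PKM2ΔMAC replicate 2 was the lowest library. On TPM they overlapped, with PKM2ΔMAC replicate 3 at 1066.3 and PKM2FL/FL replicate 2 at 1065.5. The mean was 86.1% of that of PKM2FL/FL (log2 fold change -0.22, SE 0.079, 95% interval -0.40 to -0.03, edgeR adjusted p = 0.426), and an exact two-sided permutation test gave p = 0.10, the smallest that 3 against 3 libraries allow. Without PKM2ΔMAC replicate 2 the fold change was -0.13.

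Fcgr1, the high-affinity receptor for monomeric IgG, overlapped between the genotypes. It had 183, 186 and 163 CPM in PKM2FL/FL and 191, 192 and 163 CPM in PKM2ΔMAC, with the replicate 3 library lowest in each group. The log2 fold change was 0.04 (SE 0.077, 95% interval -0.14 to 0.22, edgeR adjusted p = 0.914). Fcgr4, the receptor for IgG2a and IgG2b, also overlapped, with 58.9, 44.9 and 48.9 CPM in PKM2FL/FL and 55.6, 39.6 and 51.8 CPM in PKM2ΔMAC. Replicate 1 was the highest and replicate 2 the lowest in both groups, and the log2 fold change of -0.06 had an interval of -0.45 to 0.34 (SE 0.158, edgeR adjusted p = 0.946). On counts the interval of Fcgr1 was thus narrower than that of Fcgr4. On TPM the log2 difference of Fcgr1 was 0.11.

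RNA of the common gamma chain stood at nearly equal levels in all libraries. Fcer1g had 512, 500 and 495 CPM in PKM2FL/FL and 491, 489 and 484 CPM in PKM2ΔMAC. The groups did not overlap, but the PKM2ΔMAC mean was 97.1% of the PKM2FL/FL mean (log2 fold change -0.04, SE 0.038, 95% interval -0.13 to 0.04, edgeR adjusted p = 0.778). On TPM the libraries overlapped and the difference was 0.03. Per activating receptor, there were 1.37 ± 0.027 units of Fcer1g TPM for each unit of summed Fcgr1, Fcgr3 and Fcgr4 TPM in PKM2FL/FL and 1.49 ± 0.136 in PKM2ΔMAC (mean ± SD, n = 3), with overlapping libraries.

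**Figure D3:**
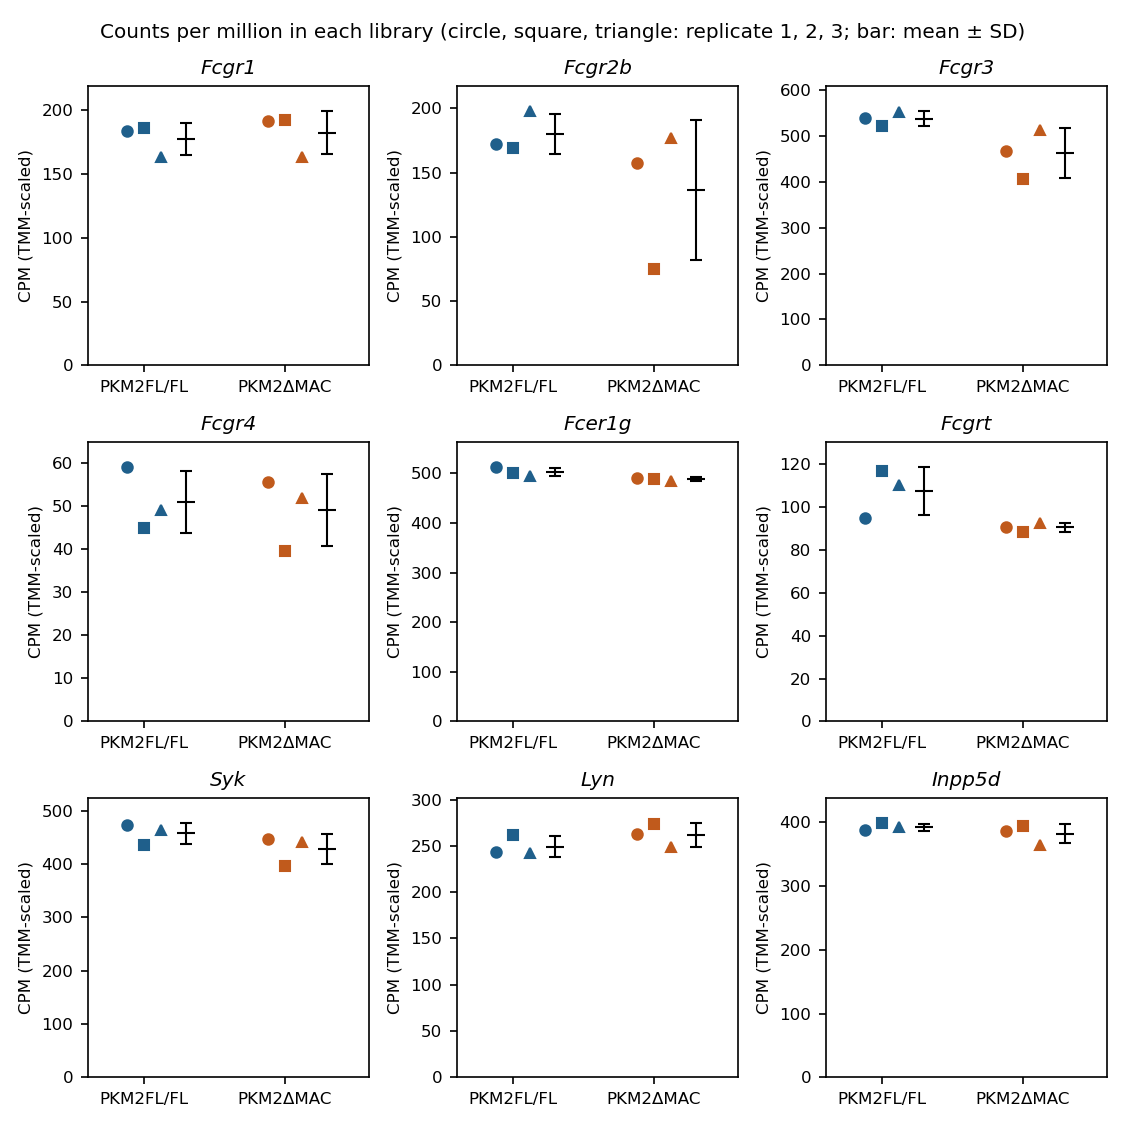
CPM of each of the 9 genes in the 6 libraries (points, symbols for replicate number), with mean ± SD of each genotype (bars, n = 3) on axes that start at 0. Fcgr2b of PKM2ΔMAC replicate 2, at 74.7 CPM, lies far below the other libraries, and Fcgr3, Fcer1g and Fcgrt do not overlap between the genotypes.

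The inhibitory receptor varied most among the PKM2ΔMAC libraries, through 1 library. Among the PKM2FL/FL libraries Fcgr4 (coefficient of variation 14.1%) and Fcgrt (10.4%) varied more than Fcgr2b (8.61%). Fcgr2b had 173, 170 and 198 CPM in PKM2FL/FL and 158, 74.7 and 177 CPM in PKM2ΔMAC. The replicate 2 library of PKM2ΔMAC stood at 41.5% of the PKM2FL/FL mean and at 44.6% of the mean of the other PKM2ΔMAC libraries, while those other libraries lay within or just below the PKM2FL/FL range. The log2 fold change was -0.40 with an interval of -1.26 to 0.47 (SE 0.337, edgeR adjusted p = 0.778, exact permutation p = 0.30). The coefficient of variation was 39.8% among the 3 PKM2ΔMAC libraries. Without replicate 2 the log2 fold change was -0.10. Fcgr2b was the only one of the 9 genes among those that lay at least 1.5-fold outside all other libraries in PKM2ΔMAC replicate 2. Fcgr3, which shares sequence with it, stood at 75.7% of the PKM2FL/FL mean in that library, Fcgr4 at 77.8%, Syk at 86.6% and Fcgr1 at 109%.

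The ratio of activating to inhibitory receptors, (Fcgr1 + Fcgr3 + Fcgr4) / Fcgr2b on TPM, was 14.4, 13.9 and 12.3 in PKM2FL/FL and 14.2, 26.4 and 13.1 in PKM2ΔMAC. All libraries but PKM2ΔMAC replicate 2 lay close together, and the genotypes overlapped. The means were 13.5 ± 1.09 and 17.9 ± 7.36 (SD, n = 3). The means of the log2 ratios of the libraries differed by 0.33, with an exact two-sided permutation p = 0.50. Without PKM2ΔMAC replicate 2 this difference of mean log2 ratios was 0.015. The numerator itself did not overlap, with 1485, 1447 and 1465 TPM in PKM2FL/FL and 1405, 1299 and 1442 TPM in PKM2ΔMAC. Its mean log2 difference was -0.086, and Fcgr3 alone overlapped on TPM. The 17.2% of all genes without overlap was taken on CPM, so that no share stands beside this sum. Fcgr3 supplied 74.0% ± 1.64 of that sum in PKM2FL/FL and 70.8% ± 2.77 in PKM2ΔMAC, Fcgr1 16.4% ± 1.31 and 18.9% ± 3.06, and Fcgr4 9.66% ± 1.14 and 10.3% ± 1.08 (SD, n = 3), and each share overlapped between the genotypes.

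**Figure D4:**
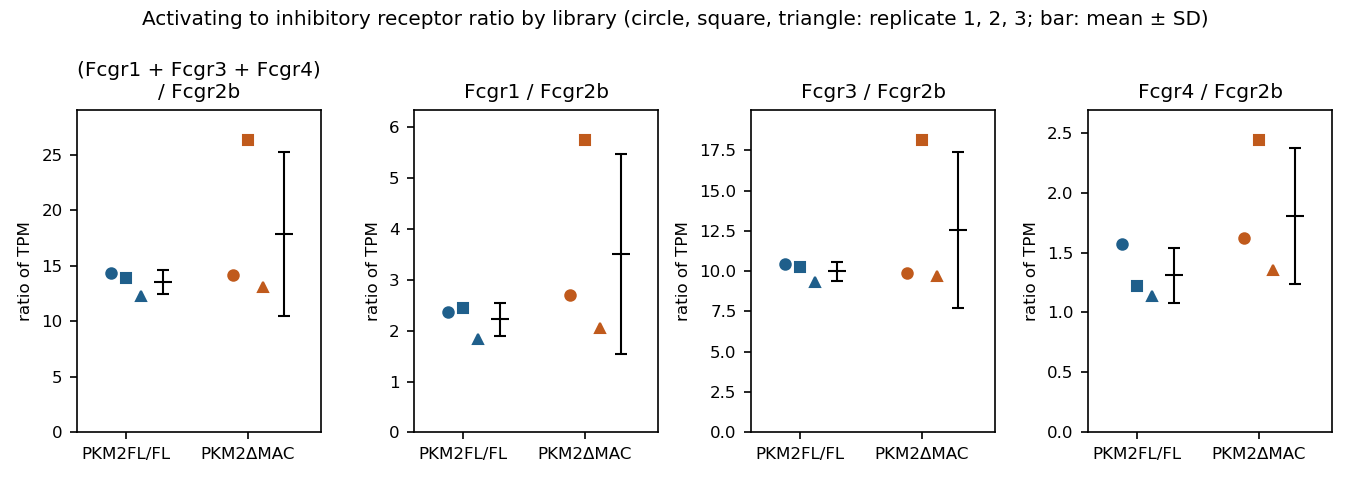
Ratio of TPM of the summed activating receptors, and of Fcgr1, Fcgr3 and Fcgr4 singly, to Fcgr2b in each library (points), with mean ± SD (bars, n = 3). In all 4 panels PKM2ΔMAC replicate 2 is the highest library, and in the first it stands at 26.4 against 12.3 to 14.4 elsewhere.

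Fcgrt (chr7:45092990-45103851, minus strand), the FcRn alpha chain, gave the smallest edgeR p of the 9 genes with genotype as the only term and all libraries. Fcgr3 gave a smaller p than Fcgrt with a replicate block, on TPM with limma and without PKM2ΔMAC replicate 2 or 3. Fcgrt had 95, 117 and 110 CPM in PKM2FL/FL and 90.7, 88.5 and 92.7 CPM in PKM2ΔMAC. The groups did not overlap, although PKM2FL/FL replicate 1 lay close to the PKM2ΔMAC libraries, which differed little among themselves (coefficient of variation 2.37% against 10.4%). The mean was 84.5% of that of PKM2FL/FL (log2 fold change -0.24, SE 0.072, 95% interval -0.41 to -0.08, unadjusted p = 0.00936 and adjusted p = 0.329 with edgeR, exact permutation p = 0.10). On TPM, PKM2FL/FL replicate 1 (156.8) lay inside the PKM2ΔMAC range of 156.6 to 160.7. B2m, the partner chain of FcRn, overlapped between the genotypes (log2 fold change -0.02, SE 0.062, edgeR adjusted p = 0.945).

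Among the signalling genes, none separated the genotypes. These are Syk (chr13:52583173-52648792, plus strand), Lyn (chr4:3678115-3813122, plus strand) and Inpp5d (chr1:87620312-87720507, plus strand). Syk had 472, 436 and 463 CPM in PKM2FL/FL and 448, 396 and 441 CPM in PKM2ΔMAC (log2 fold change -0.09, SE 0.057, 95% interval -0.22 to 0.04, edgeR adjusted p = 0.648). Lyn, which phosphorylates both ITAM and ITIM tyrosines, had 243, 262 and 242 CPM in PKM2FL/FL and 262, 274 and 248.8 CPM in PKM2ΔMAC (log2 fold change 0.07, SE 0.051, 95% interval -0.04 to 0.19, edgeR adjusted p = 0.708). In each genotype replicate 2 was lowest for Syk and highest for Lyn. Inpp5d, whose product removes the membrane lipid that activating receptors generate, had 387, 398 and 392 CPM in PKM2FL/FL and 387, 393 and 365 CPM in PKM2ΔMAC (log2 fold change -0.04, SE 0.043, 95% interval -0.14 to 0.06, edgeR adjusted p = 0.823). On TPM the log2 differences of Syk and Lyn were -0.02 and 0.14, and without PKM2ΔMAC replicate 2 the fold changes on counts were -0.04 and 0.04. The intervals of these 3 genes reached no lower than -0.22 and no higher than 0.19 on the log2 scale. The ratio of Syk to Inpp5d TPM was 0.947 ± 0.052 in PKM2FL/FL and 0.913 ± 0.086 in PKM2ΔMAC (SD, n = 3), and that of Lyn to Syk was 1.26 ± 0.110 and 1.41 ± 0.157, both with overlapping libraries.

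As a description over the 6 libraries, which share the split by genotype and the library that stands apart, Fcgr2b varied most like Fcgr3 (Pearson r = 0.93 of log2 CPM, the highest among the 9 genes), and Fcgr3 least like Lyn (r = -0.88). Among 9090 other genes with a mean of at least 10 CPM, the gene most like Fcgr2b was Tnks (r = 0.999), that most like Fcgr3 was Rabac1 (r = 0.995), that most like Fcgr4 was Psen2 (r = 0.995), that most like Fcgrt was Dedd2 (r = 0.995) and that most like Fcgr1 was Bag1 (r = 0.986). Of these genes, 155 had r over 0.95 with Fcgr2b and 13 with Fcgr1. Some of these partners moved over a small range, with Bag1 between 114 and 117 CPM and Tnks between 131 and 150 CPM.

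Neutrophils also carry Fc-gamma receptors and Fcer1g, and the values of their markers are given beside those of the receptors. The summed TPM of 8 neutrophil markers was 68.6, 119 and 168 in PKM2FL/FL and 469, 323 and 659 in PKM2ΔMAC. The fold changes of all 8 lay above 0, and 5 of 8 did not overlap (against 17.2% of all genes tested). With edgeR 0 were called, against 0.412% of all genes tested (smallest edgeR adjusted p = 0.213, for S100a8), and 5 had an unadjusted p under 0.05 (against 9.83% of all genes tested). S100a9, the most abundant, had 27.4, 55.2 and 82.4 TPM in PKM2FL/FL and 229, 145 and 309 TPM in PKM2ΔMAC. The part of these cells in the receptor values was not tested.

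Markers of other cells with Fc receptors were low. The 6 B cell markers summed to between 16.5 and 21.9 TPM in PKM2FL/FL and 19.4 and 25.7 TPM in PKM2ΔMAC, mostly Ebf1. With edgeR 0 of 3 tested were called, against 0.412% of all genes tested (smallest edgeR adjusted p = 0.466, for Cd79b). The mast cell and basophil markers summed to between 9.87 and 17.0 TPM and between 6.69 and 22.8 TPM, with Mcpt8 the most abundant. Of the 5 tested 0 were called with edgeR, against 0.412% of all genes tested (smallest edgeR adjusted p = 0.233, for Cpa3). The 4 eosinophil markers summed to between 11.7 and 18.4 TPM and between 21.5 and 27.5 TPM, with 1 of 3 tested called with edgeR (against 0.412% of all genes tested). Ccr3, a chemokine receptor, was called higher in PKM2ΔMAC (5.65, 5.81 and 5.12 against 10.9, 11.6 and 12.1 CPM, log2 fold change 1.06, SE 0.097, edgeR adjusted p = 0.00263). Prg2 (log2 fold change 0.04, edgeR adjusted p = 0.992) and Siglecf (0.19, edgeR adjusted p = 0.916) overlapped between the genotypes. The 7 T and NK cell markers summed to at most 1.44 TPM and the 6 dendritic cell markers to at most 3.85 TPM. In each list 0 markers were at 0 in all 6 libraries. The part of these cells in the receptor values was not tested.

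The other genes of the pathway were taken from lists written by function. Over 8 lists, 100 genes passed the filter and 1 was called, Rab4a, against 0.412% of all genes tested. Without PKM2ΔMAC replicate 2 there were 5 (Actr3, Myo10, Fcrl5, Rab4a and Ciita), and with DESeq2 6 (Cbl, Actr3, Fcrl5, Siglece, Pilra and Rab4a), where the calls over the whole table numbered 299 and 302 against 68. Rab4a, a GTPase of fast recycling from endosomes, had 3.58, 3.08 and 2.36 CPM in PKM2FL/FL and 8.68, 10.1 and 10.4 CPM in PKM2ΔMAC (log2 fold change 1.69, SE 0.162, edgeR adjusted p = 0.00311). It stood apart from the other FcRn and endocytic partners, whose fold changes lay between -0.08 and 0.04.

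**Figure D5:**
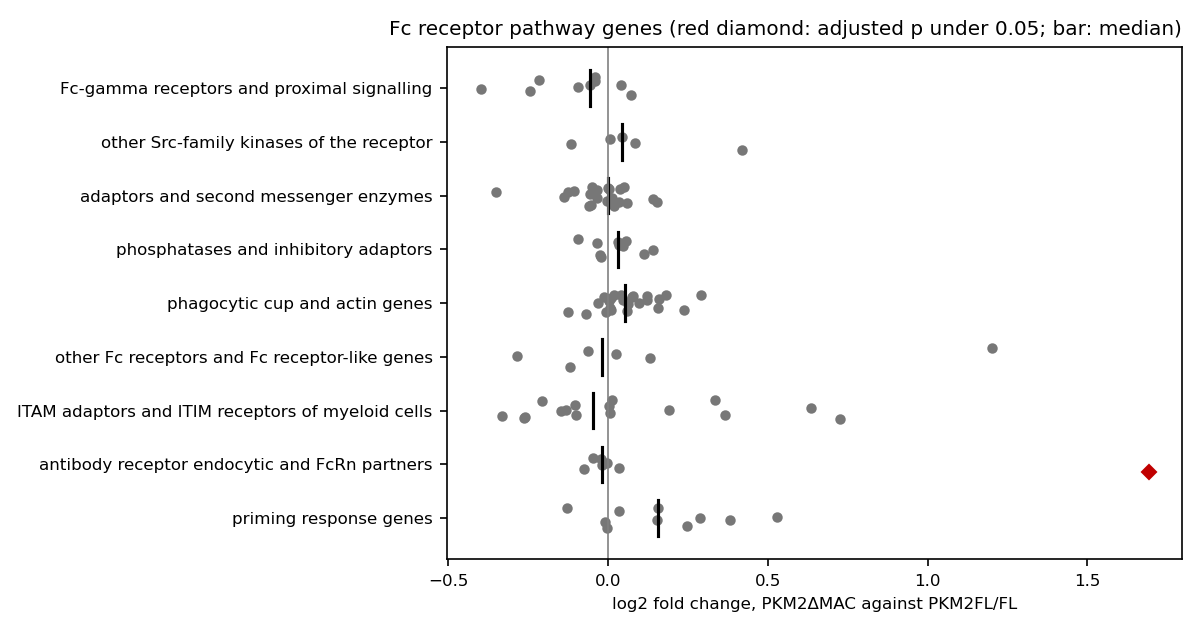
log2 fold change of each tested gene of the 9 genes and of the 8 pathway lists (points, spread vertically for visibility), with the median of each list (bar) and genes with an adjusted p under 0.05 as red diamonds. Rab4a is the only diamond, and the next largest point is Fcrl5 at 1.20.

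Of the 5 other Src-family kinases that act on the receptors, 0 were called with edgeR (against 0.412% of all genes tested). DESeq2, which called 302 genes over the whole table, also called 0 of them. Fyn had the smallest p of the list (log2 fold change -0.12, SE 0.080, edgeR adjusted p = 0.701). Of 22 adaptors and second messenger enzymes, 11 fold changes lay above and 11 below 0 on counts. On TPM 18 lay above and 4 below (median 0.064, against 0.063 over the genes with a mean of at least 1 TPM). The genotypes did not overlap in 3 of the 22 (against 17.2% of all genes tested). With edgeR 0 were called (against 0.412% of all genes tested), whereas DESeq2 called Cbl. The most abundant was Pik3ap1, an adaptor of phosphoinositide 3-kinase (log2 fold change 0.14, SE 0.057, edgeR adjusted p = 0.468). Cbl, the ubiquitin ligase that acts on Syk and activated receptors, had 347, 345 and 352 CPM in PKM2FL/FL and 297, 283 and 239 CPM in PKM2ΔMAC. Its groups did not overlap, with a log2 fold change of -0.35 (SE 0.075, edgeR adjusted p = 0.167). Of 10 phosphatases and inhibitory adaptors 0 were called with edgeR (against 0.412% of all genes tested) or DESeq2. Ptpn6, the tyrosine phosphatase of ITIM receptors and the most abundant, gave the smallest p (log2 fold change 0.11, SE 0.059, edgeR adjusted p = 0.575).

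Genes of the phagocytic cup, which build actin around a bound particle, lay mostly above 0, without a call by edgeR over all 6 libraries. Of 24, 19 fold changes lay above 0 and 5 below (median 0.05 on the log2 scale), and the genotypes did not overlap in 11 (against 17.2% of all genes tested). With edgeR 6 had an unadjusted p under 0.05 (against 9.83% of all genes tested) and 0 were called (against 0.412%). DESeq2 called 1, Actr3. On TPM, where the median over the genes with a mean of at least 1 TPM was 0.063, 23 lay above 0. Without PKM2ΔMAC replicate 2, 15 lay above 0, and edgeR called Actr3 and Myo10. Arpc2, a subunit of the Arp2/3 complex and the most abundant, had a log2 fold change of 0.10 (SE 0.041, edgeR adjusted p = 0.493). Actr3, another subunit, had 764, 734 and 737 CPM in PKM2FL/FL and 840.5, 816 and 841 CPM in PKM2ΔMAC. Its groups did not overlap, with a log2 fold change of 0.16 (SE 0.041, edgeR adjusted p = 0.225).

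Of 11 other Fc receptors and Fc receptor-like genes 6 were tested and 0 called with edgeR (against 0.412% of all genes tested). DESeq2 called Fcrl5, as did edgeR with no filter on low counts or without PKM2ΔMAC replicate 2. Fcrls, an Fc receptor-like gene with a scavenger receptor domain, was the most abundant, at between 1095 and 1356 TPM (log2 fold change -0.12, SE 0.060, edgeR adjusted p = 0.573). Fcrl5, an Fc receptor-like gene best known from B cells, had 3.13, 2.33 and 2.03 CPM in PKM2FL/FL and 5.93, 4.62 and 6.67 CPM in PKM2ΔMAC. Its groups did not overlap, and its log2 fold change of 1.20 (SE 0.204) missed the threshold with edgeR (adjusted p = 0.0594).

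Other ITAM adaptors and ITIM receptors of myeloid cells were divided in direction, with 8 of 16 fold changes above 0 and 8 below. This even split depended on single libraries: 5 lay above 0 without PKM2ΔMAC replicate 1 or 3, and 9 without replicate 2. The genotypes did not overlap in 7 (against 17.2% of all genes tested), and 7 had an unadjusted p under 0.05 with edgeR (against 9.83% of all genes tested). With edgeR 0 were called (against 0.412% of all genes tested), whereas DESeq2 called Siglece and Pilra. Tyrobp, the ITAM adaptor that is the counterpart of Fcer1g, lay between 2392 and 2698 TPM and overlapped between the genotypes (log2 fold change 0.01, SE 0.058, edgeR adjusted p = 0.986). Pilra, an inhibitory receptor, had 5.67, 6.98 and 6.22 CPM in PKM2FL/FL and 8.27, 11.6 and 9.49 CPM in PKM2ΔMAC. Its groups did not overlap, with a log2 fold change of 0.64 (SE 0.143, edgeR adjusted p = 0.179).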

How the data were processed

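RNA-seq of 3 PKM2ΔMAC and 3 PKM2FL/FL BMDM cultures was analysed. Per the labels, the authors prepared total RNA with a SMARTER kit, and their processing notes name FastQC 0.12.1, Trim Galore 0.6.10, HISAT2 2.2.1, SAMtools 1.19.2, Subread 2.0.6 and mm10. The annotation and the strand setting are not given in the sources used here. The authors deposited raw counts and TPM values per gene symbol for the same 6 libraries. Here the counts were tested with edgeR 4.0.16 (R 4.3.3): filterByExpr, TMM factors (0.980 to 1.04), genotype as the only term, robust quasi-likelihood fit, Benjamini-Hochberg adjustment over 16516 genes, called under 0.05. CPM were scaled by TMM, and log2(CPM + 0.1) was used for correlations and for two-sided exact permutation tests, whose smallest p is 0.10. Levels of different genes and their ratios used the deposited TPM. Nothing beyond the mouse number states that cultures were independent, and p-values measure the spread between these libraries, which differed by more than sampling noise (chi-square per degree of freedom at least 7.55 within a genotype). Each library held at least 49957449 counts, but genes with few counts, such as Nos2, also carry counting error. As alternatives, the fit was repeated with DESeq2 1.42.0, upper-quartile or RLE factors, other filters on low counts, non-robust estimation, a replicate block, limma 3.58.1 on log2 TPM (pseudocount 1 or 0.1) and each library left out. Positions came from GENCODE M21 on GRCm38 and promoters from RefSeq. Named genes were the 9 genes, called members of the lists, the most abundant and the smallest-p member of each list, the closest gene by correlation, macrophage markers and priming response genes by level, Pkm and Lyz2. Some genes that this rule names are not reported here. The 9 genes and the lists were chosen with earlier results of these data known.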

Additional observations from a re-analysis of the deposited data

How the results depend on the processing

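None of the 9 genes was called under any of the 16 alternatives. At an unadjusted p under 0.05 there were 2 (Fcgr3 and Fcgrt) with DESeq2, 3 with the replicate block (also Syk) and 0 on TPM with limma. The share of all genes tested at that threshold was taken only for the main edgeR fit (9.83%). These counts of the alternatives therefore have no share of their own to be read against. The adjusted p ranged from 0.133 to 0.781 for Fcgr3, from 0.0931 to 0.75 for Fcgrt and from 0.559 to 0.933 for Fcgr2b, whose log2 fold change ranged from -0.63 to -0.10 when libraries were left out. The replicate block was kept as an alternative, because the labels do not state that equally numbered libraries share a litter or day. Deviations of same-numbered libraries correlated at 0.080, 0.141 and 0.019, and 5 of 6 libraries correlated best with their own number. Whether the cultures were paired was not tested. The block lowered the SE from 0.158 to 0.0586 for Fcgr4, from 0.077 to 0.038 for Fcgr1 and from 0.079 to 0.054 for Fcgr3. Of the 9 genes, only Fcer1g had a larger SE with the block (0.0395 against 0.0375). With it, 2 genes of the pathway lists were called (Clec4a2 and Rab4a) against 1, and the log2 difference of the activating to inhibitory ratio was 0.33 (exact permutation p = 0.50), which pairing cannot move in a balanced design and whose smallest p over 3 pairs is 0.25, so that it says nothing about stability. The genes called over the whole table numbered 68, but 302 with DESeq2, 120 with no filter on low counts, 41, 34 and 36 on TPM (pseudocount 1, 0.1, and 1 with no filter), and between 22 and 299 when 1 library was left out, the highest without PKM2ΔMAC replicate 2. Pathway list calls numbered 6 with DESeq2, 2 with no filter (Fcrl5 and Rab4a) and between 1 and 5 with 1 library left out. The ratio differed by between 0.015 and 0.52 on the log2 scale with 1 library left out. Directions turned for genes near 0: on TPM to 0.0120 (all 3 forms) for Fcgr4, 0.0302 for Fcer1g and 0.0320 (0.0321 with a pseudocount of 0.1) for Inpp5d, and with 1 library left out within -0.0176 to 0.114 for Fcgr1 and -0.156 to 0.0788 for Fcgr4. The median log2 difference over the genes compared was 0.063 and 0.067 on TPM with a mean of at least 1 (pseudocount 1 and 0.1) and 0.046 on TPM with no filter. The cause of these shifts was not tested.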

Other observations

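In PKM2ΔMAC replicate 2, the library with the lowest Fcgr2b, other genes also lay far from the remaining libraries. The genes of this paragraph were chosen after their values were seen. Among those at least 1.5-fold below each other library, Anpep, a membrane aminopeptidase, had 442 CPM against 735 to 1100 elsewhere, Fabp5, a fatty acid binding protein, had 241 against 470 to 606, Abca1, a cholesterol exporter, had 260 against 400 to 468 and Atp6v0d2, a subunit of the vacuolar proton pump, had 142 against 243 to 414. Cd22, an ITIM receptor, had 14.1 CPM against 27.7 to 40.5. Among those at least 1.5-fold above each other library, Mki67, a nuclear protein of dividing cells, had 247 CPM against 118 to 164, Top2a, a DNA topoisomerase, had 159 against 76.3 to 102 and Ccna2, a cyclin, had 34.1 against 15.4 to 19.6. Itgal, a leukocyte integrin chain, had 96.9 CPM against 40.1 to 56.1 and Tnf, an inflammatory cytokine, had 19.5 against 11.0 to 12.2, whereas Itgb3, another integrin chain, and Ccl6, a chemokine, lay below, with 32.7 against 55.8 to 94.1 and 66.8 against 113 to 152. These values come from 1 library and carry no test.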
